A study of Sus scrofa with 30 samples.

Results

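The distal H3K4me3 regions of pig metaphase II (MII) oocytes were intervals of at least 500 base pairs (bp) that peaks of both MII H3K4me3 libraries covered, on chromosomes 1 to 18, and that lay wholly more than 5 kb from either end of every protein-coding gene. There were 13768 of them among 23287 shared intervals of at least 500 bp on these chromosomes, and 47924 shared intervals of any length. H3K4me3 is trimethylation of histone H3 at lysine 4 and H3K27me3 is trimethylation at lysine 27. The 30 libraries came from native chromatin immunoprecipitation of very few cells (ULI-NChIP-seq), with 2 libraries in each of 15 groups. H3K4me3 was profiled in germinal vesicle (GV) and MII oocytes and in embryos of in vitro fertilisation at the 1-cell, 2-cell, 4-cell, 8-cell, morula and blastocyst stages. A further H3K4me3 group, called siKDM5BC here, was 4-cell embryos grown from zygotes that received siRNA targeting KDM5B together with KDM5C, 2 demethylases of H3K4. The H3K27me3 libraries came from MII oocytes and at the 2-cell, 4-cell, 8-cell, morula and blastocyst stages.

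The labels name neither a breed nor the number of oocytes or embryos in a library, and no library is labelled as receiving a control siRNA, so the 4-cell libraries of the stage series were the comparison for siKDM5BC. Both siKDM5BC lists also differ from the rest in that they hold peaks on unplaced sequences (1212 and 1087 peaks, against 0 in every other list). That difference in how the lists were made and the injection cannot be told apart. The labels do not say that replicates were separate collections, so each p-value of a test over libraries reflects no more than library-to-library spread, which may be technical. The contrast of earlier with later stages was instead tested over stage means. Of 14 oocyte marker genes, 8 and 11 had an H3K4me3 peak within 1 kb of an end in MII replicates 1 and 2, against 4 and 5 of 12 cumulus and granulosa cell markers and 60.4% and 73.1% of all coding genes. Peaks at gene ends do not measure expression, and how far cumulus cells took part was not tested.

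In most somatic cells H3K4me3 sits in short blocks at the start sites of active and poised genes. Mammalian oocytes also carry it over broad and distal stretches that gain it as the oocyte grows, through the methyltransferase KMT2B in the mouse, and embryos lose these stretches around the time their own genome is activated, with the KDM5 demethylases taking part. H3K27me3 is the mark of Polycomb complexes, which keep developmental genes silent. In the pig the main wave of genome activation falls around the 4-cell and 8-cell stages.

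In the MII oocyte the distal regions were short, and their peak values were, like those of the whole MII lists, close to the lists' lower limit. They summed to 14.27 Mb, or 0.719% of all distal sequence, meaning sequence beyond 5 kb of every coding gene end, and the other distal sequence came to 1971 Mb. The median width was 840 bp, the quartiles were 646 and 1205 bp, and 5036 regions (36.6%) were 1 kb or wider. Only 33 regions reached 5 kb, and the widest measured 12812 bp. The median fold enrichment over the caller's background, the authors' own value, was 3.37 in MII replicate 1 and 3.38 in replicate 2, against 3.31 and 3.27 over all peaks of these lists. The lists themselves began at 3.07 and 2.97. A −log10 q of at least 2 was reached by 429 regions in replicate 1 and by 3333 in replicate 2, and a value of 3 by 44 and 131. These values chose the regions and are descriptions. Shared intervals just under the length limit (2907 intervals, median 449 bp) and just over it (2397 regions, median 544 bp) were covered by 45.7% and 45.8% in GV replicate 1 and by 68.2% and 70.8% in siKDM5BC replicate 1. The 596 intervals 4 to 5 kb from a gene end and the 532 regions 5 to 6 kb away were at 61.3% and 61.0% in GV replicate 1.

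Across the other stages the regions were, by stage means, covered by H3K4me3 most in the GV oocyte, less by the 4-cell stage and least from the 8-cell stage on. Peaks covered 55.2% and 53.7% of the region bases in the 2 GV libraries. The 1-cell libraries stood far apart, at 17.0% and 52.6%. The 2-cell libraries were at 49.5% and 40.1%, and the 4-cell libraries at 29.1% and 15.2%. From there on the values stayed low, at 12.5% and 18.7% in 8-cell embryos, 13.7% and 15.5% in morulae and 16.2% and 16.6% in blastocysts. The GV and 2-cell libraries lay above all 8 libraries of the 4-cell to blastocyst stages without overlap, and the 1-cell pair spanned both sets. The 4-cell pair overlapped the later stages, since its replicate 2 lay within their values. The covered share differed between the 7 stages at the edge of the threshold (GV 54.5% ± 1.04 and morula 14.6% ± 1.29, SD, n = 2 libraries each; one-sided permutation test of the F statistic, 14 libraries, p = 0.0466, Benjamini-Hochberg adjusted over 4 stage tests 0.0466). Leaving out 1 library ended this call in 11 of 14 cases (adjusted p up to 0.106), and without 1-cell replicate 1 or 2 the adjusted p was 0.00662 and 0.00921. When peaks under a −log10 q of 3 were dropped from the followed libraries the order turned: the blastocyst was highest at 13.4%, the 1-cell stage lowest at 0.849%, and the GV mean lay 6.67 percentage points under the morula mean (GV minus morula −6.67). In that turned order the stages differed more clearly (same permutation test, adjusted p = 0.00173).

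**Figure D1:**
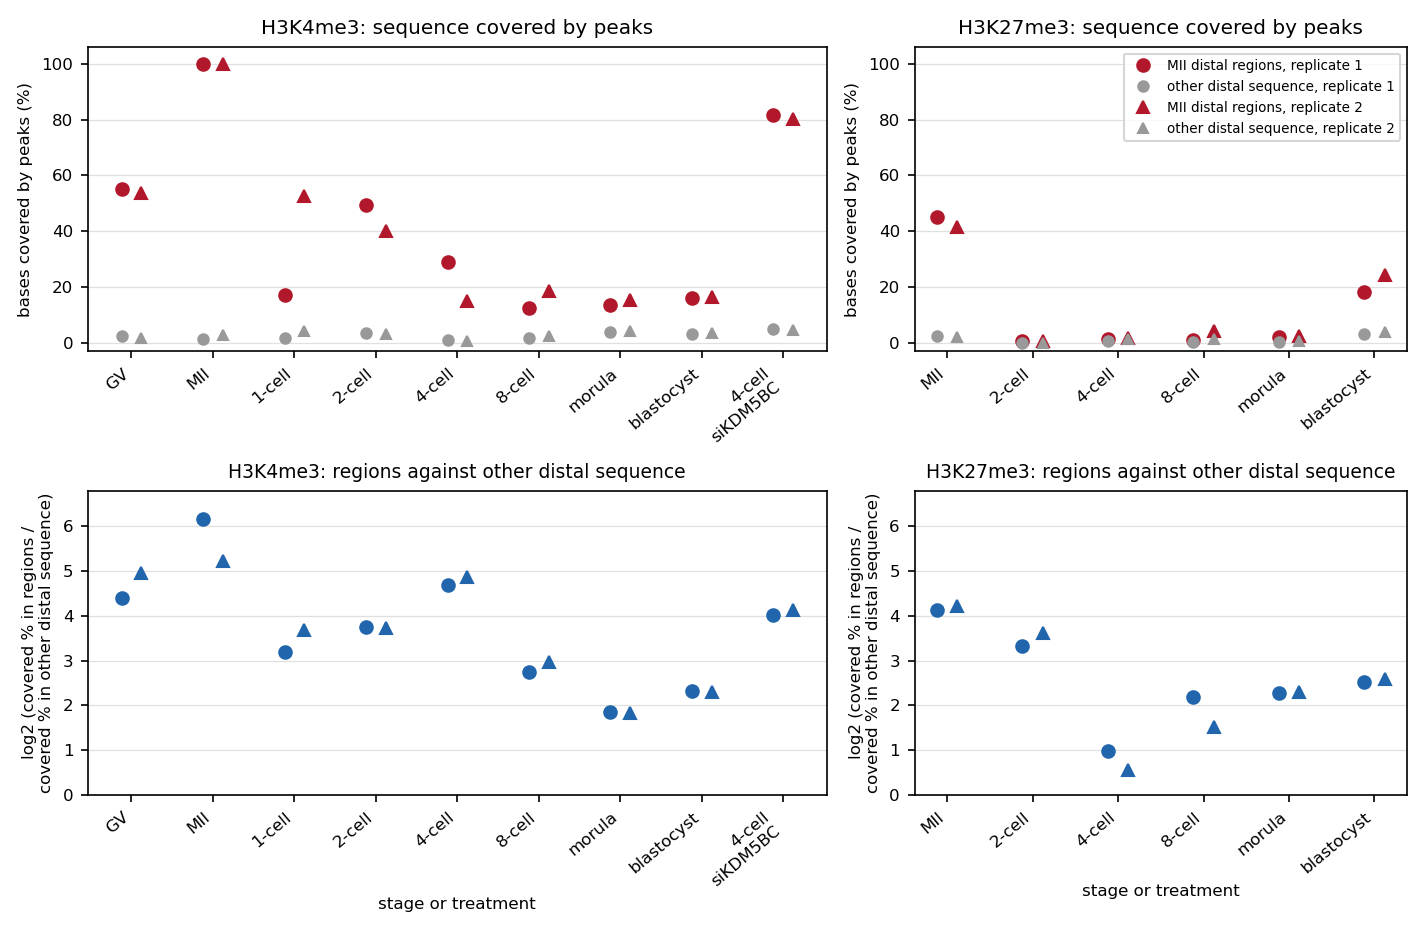
Share of bases covered by peaks (upper row) and its log2 ratio between the MII distal regions and all other distal sequence (lower row), for H3K4me3 (left) and H3K27me3 (right); each symbol is 1 library, circles replicate 1 and triangles replicate 2. MII H3K4me3 is at 100% by the choice of regions; GV and 2-cell libraries lie at 40.1% or more, morula and blastocyst libraries at 16.6% or less, and the siKDM5BC libraries at 80.2% and 81.6%.

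The lists differ in how much of the genome they cover, so each share was also set against the other distal sequence of the same library. On chromosomes 1 to 18 the H3K4me3 lists ran from 31.0 Mb (4-cell replicate 2) to 173.9 Mb (siKDM5BC replicate 1), and none of the lists gives a read total. The log2 ratio of the covered share in the regions to that in other distal sequence was highest at the 4-cell stage, 4.69 and 4.86 in its 2 libraries, and in GV oocytes, 4.39 and 4.96. These 2 stages overlapped. Next came the 2-cell stage at 3.76 and 3.74 and the 1-cell stage at 3.18 and 3.69, which lay apart from them and did not overlap each other. Lower still were the 8-cell stage at 2.75 and 2.96, the blastocyst at 2.32 and 2.29 and the morula at 1.84 and 1.82, and none of these 3 overlapped another stage. The ratio differed between the 7 stages (4-cell mean 4.78, morula mean 1.83; the same permutation test, p = 5e-05, adjusted 0.00016), and it kept its side of the threshold under every alternative run. The top place did not hold: the 1-cell stage was highest with a −log10 q minimum of 2 (mean 7.94) or 3 (6.33), and the GV stage was with regions of MII replicate 1 or 2 alone (4.36 and 4.59) and without GV replicate 1. The 4-cell libraries thus combined a low covered share with a high ratio, since peaks covered only 1.13% and 0.522% of their other distal sequence. The contrast between the 3 stages up to 2-cell (mean log2 ratio 3.95) and the 4 later stages (2.94) did not pass (difference 1.01, exact permutation test over 35 splits of the 7 stage means, two-sided, p = 0.257, smallest possible 0.0286). This p-value sets the difference against the spread between stage means.

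Counted region by region, 4615 of 13768 regions (33.5%) were covered over at least 50% of their length in both GV libraries, against 0.587% of distal 1 kb tiles that met no region. That background was 0.622% at the 1-cell stage, where 1793 regions (13.0%) passed, and 0.914% at the 2-cell stage, where 3528 (25.6%) passed. At the 4-cell stage 1336 regions (9.70%) passed against 0.146% of tiles, and at the 8-cell stage 1145 (8.32%) against 0.737%. In morulae 1751 regions (12.7%) passed against 2.62% of tiles, and in blastocysts 1892 (13.7%) against 2.14%. The share in regions was thus above the tile background at every stage. As a ratio to the tile share it was 57.1 in GV oocytes, 20.9 at the 1-cell, 28.0 at the 2-cell and 66.3 at the 4-cell stage. It was 11.3 at the 8-cell stage, 4.86 in morulae and 6.415 in blastocysts. In percentage points the 4-cell margin was not wider than those of morulae and blastocysts.

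Most regions were kept at few stages. At none of the 7 other stages was the 50% rule met in both libraries by 6435 regions (46.7%, tiles 94.8%), and 3788 (27.5%) met it at 1 stage. All 7 stages kept 275 regions (2.00%), against 0.0135% of tiles. Counting a region as kept from 1 bp gave 840, and from 90% gave 52. Both morula and both blastocyst libraries kept 1469 regions (10.7%, tiles 1.37%). Of these 1469, 83 (5.65%) had no covered base at the 4-cell and 8-cell stages, against 42.1% of the tiles kept in morulae and blastocysts. Over all regions these 83 are 0.603%, and over all tiles the pattern holds for 0.578%. At the other extreme, 284 regions (2.06%, tiles 0.0850%) were kept at the 1-cell and 2-cell stages and had no covered base in the 4 morula and blastocyst libraries. No H3K4me3 in any of the 14 libraries of the other stages was found at 511 regions (3.71%, tiles 73.7%), and none in these or the siKDM5BC libraries at 306 (2.22%, tiles 72.3%).

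H3K4me3 peaks were more frequent at the region centres than 10 to 20 kb away, and the neighbourhood was itself raised. The width of the peaks was not measured. In GV oocytes 54.9% and 52.1% of the region centres lay in a peak, and 17.9% and 16.6% of points 10 to 20 kb away did. In 4-cell libraries the centres were at 28.8% and 15.2% and the points 10 to 20 kb away at 9.02% and 4.30%. In blastocysts the corresponding pairs were 16.8% and 17.2% at the centres against 8.26% and 8.53%. Centre to flank ratios ran from 2.01 in blastocyst replicate 2 to 3.53 in 4-cell replicate 2 over these 14 libraries. Measured this way the log2 ratio still differed between stages, with the 4-cell stage highest (1.75) and the blastocyst lowest (1.02) (same permutation test, adjusted p = 0.00434), while the range between stages shrank. Points 10 to 20 kb away include other regions of the set, since 55.6% of regions had another within 10 kb.

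**Figure D2:**
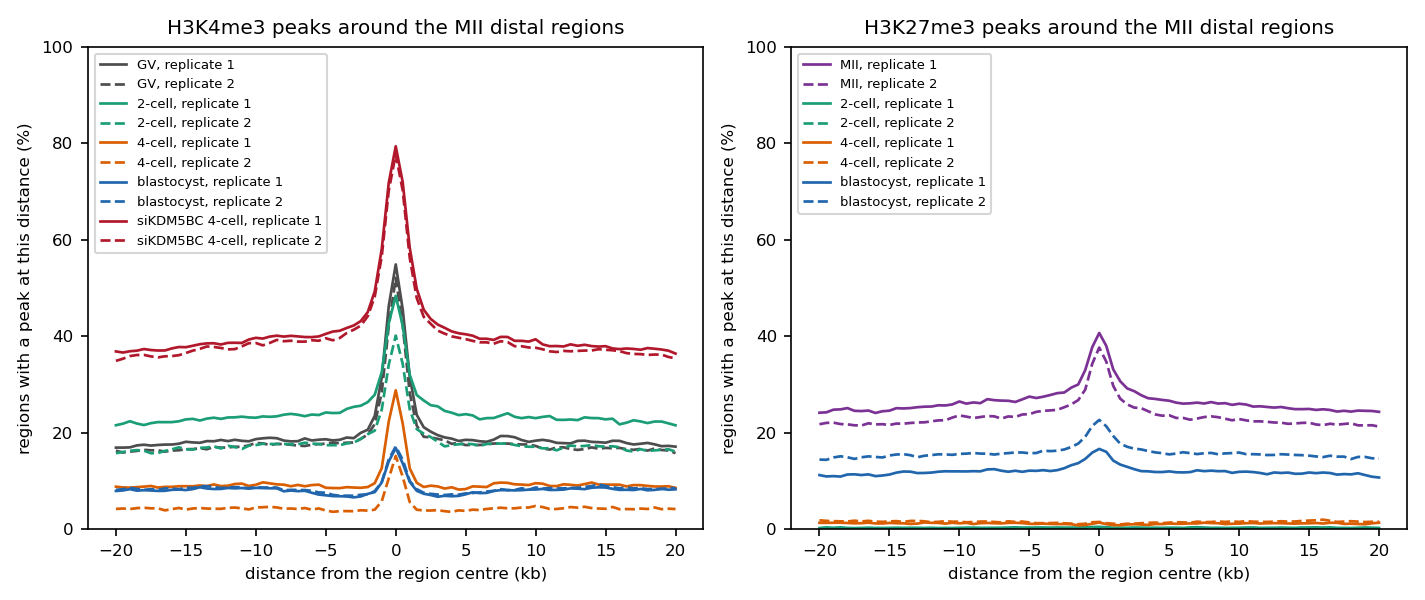
Percentage of the 13768 MII distal regions with a peak at each distance from the region centre (kb) for H3K4me3 (left) and H3K27me3 (right); solid lines are replicate 1, dashed lines replicate 2. The siKDM5BC curves reach 79.4% and 77.7% at the centre over flanks of 37.8% and 36.7%, and the 4-cell curves 28.8% and 15.2% over 9.02% and 4.30%.

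H3K27me3 lay on many of the same regions in the MII oocyte and was nearly absent from them through the morula. In MII oocytes H3K27me3 peaks covered 45.1% and 41.3% of the region bases, against 2.58% and 2.22% of other distal sequence. At the 2-cell stage this was 0.789% and 0.617%, at the 4-cell stage 1.49% and 1.76%, at the 8-cell stage 1.10% and 4.22% and in morulae 1.98% and 2.52%. In blastocysts it was 18.1% and 24.1%. The 2 MII libraries lay above both blastocyst libraries, which lay above the other 8, and the covered share differed between the 6 stages (MII 43.2% ± 2.69, 2-cell 0.703% ± 0.122, SD, n = 2; one-sided permutation test of the F statistic, 12 libraries, p = 0.00466, adjusted 0.00621). The 2-cell lists held only 3108 and 2312 peaks on these chromosomes, so the low share there stands in lists that are short as a whole. The 4-cell, 8-cell and morula lists were also shorter, covering 33 Mb at most (8-cell replicate 2). The MII lists covered 68.97 and 59.72 Mb, and the blastocyst lists 77.73 and 98.06 Mb. The part of list length in these covered shares was not tested beyond the ratios to other distal sequence.

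The log2 ratio of H3K27me3 in the regions to other distal sequence was 4.13 and 4.22 in MII oocytes, 3.32 and 3.62 at the 2-cell stage, 0.971 and 0.561 at the 4-cell stage, 2.18 and 1.51 at the 8-cell stage, 2.27 and 2.29 in morulae and 2.51 and 2.59 in blastocysts. The MII libraries were highest and the 4-cell libraries lowest, without overlap with the others, and the stages differed (MII mean 4.17, 4-cell mean 0.766; the same permutation test, p = 8e-05, adjusted 0.00016). Against points 10 to 20 kb away the 2-cell stage was highest, with a mean log2 ratio of 1.09, and the 4-cell stage lowest at 0.020 (adjusted permutation p = 0.00434). With peaks of −log10 q under 2 left out of every list, 168 regions remained and the 2-cell stage was highest at 11.93 and the blastocyst lowest at 4.36 (MII minus 4-cell −1.80 on the log2 scale). The 2-cell stage was also highest at a minimum of 1.6 (7.83) and of 3 (6.98), the blastocyst being lowest in the latter. The values of the 2-cell to morula stages rest on few regions. Without the 850 regions (6.17%, tiles 2.80%) that any 1 of these 8 libraries covered over at least 50%, the 4-cell mean log2 ratio was −1.76 and the MII mean 4.09; leaving out regions by their coverage in these libraries lowers the 4-cell value by construction.

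Region by region, both MII libraries had H3K27me3 over at least 50% of 4291 regions (31.2%, tiles 1.02%), and neither had any at 6092 (44.2%, tiles 93.9%). The 2-cell pair covered 31 regions (0.225%, tiles 0.00372%), the 4-cell pair 73 (0.530%, tiles 0.179%), the 8-cell pair also 73 (0.530%, tiles 0.123%) and the morula pair 107 (0.777%, tiles 0.132%). The blastocyst pair covered 1550 (11.3%, tiles 1.79%). H3K27me3 in MII oocytes with no covered base in the 8 libraries of the 2-cell to morula stages was found at 3093 regions (22.5%, tiles 0.732%). Both MII and both blastocyst libraries covered 827 regions (6.01%, tiles 0.134%), which is 19.3% of those marked in MII oocytes and 53.4% of those marked in blastocysts. Among tiles, 2587 were covered in both, of 19726 marked in MII oocytes and 34725 marked in blastocysts. A further pattern of the blastocyst, H3K27me3 over at least 50% in both libraries with no H3K4me3 in either, held 1047 regions (7.61%, tiles 0.813%).

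Across replicates, regions with and without H3K27me3 in the MII oocyte overlapped in H3K4me3 coverage from the 1-cell to the 8-cell stage. They separated in morulae and blastocysts. Each library measures both classes, so overlap between replicates does not show that the classes were alike. At the 1-cell stage 8.83% of regions with H3K27me3 and 17.1% of those without met the 50% rule in both libraries. These shares were 26.2% and 26.1% at the 2-cell stage, 8.81% and 11.8% at the 4-cell stage and 6.455% and 11.3% at the 8-cell stage. In GV oocytes the co-marked regions were the more covered, at 57.4% and 63.2% against 55.3% and 46.9%. At the 2-cell stage H3K4me3 covered 53.9% and 40.2% of the bases of the 4291 co-marked regions and 46.1% and 40.7% of the 6092 without H3K27me3, and the 4 values overlapped. In morulae it covered 7.62% and 9.44% of the co-marked bases and 22.0% and 23.7% of the others. In blastocysts the values were 11.96% and 12.2% against 22.8% and 23.2%. H3K27me3 in blastocysts went the other way, at 28.0% and 36.2% of the co-marked bases and 9.65% and 13.3% of the others. In none of the morula and blastocyst comparisons did the 2 libraries of 1 class overlap those of the other. With 2 libraries a stage no test of a single stage was run.

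**Figure D3:**
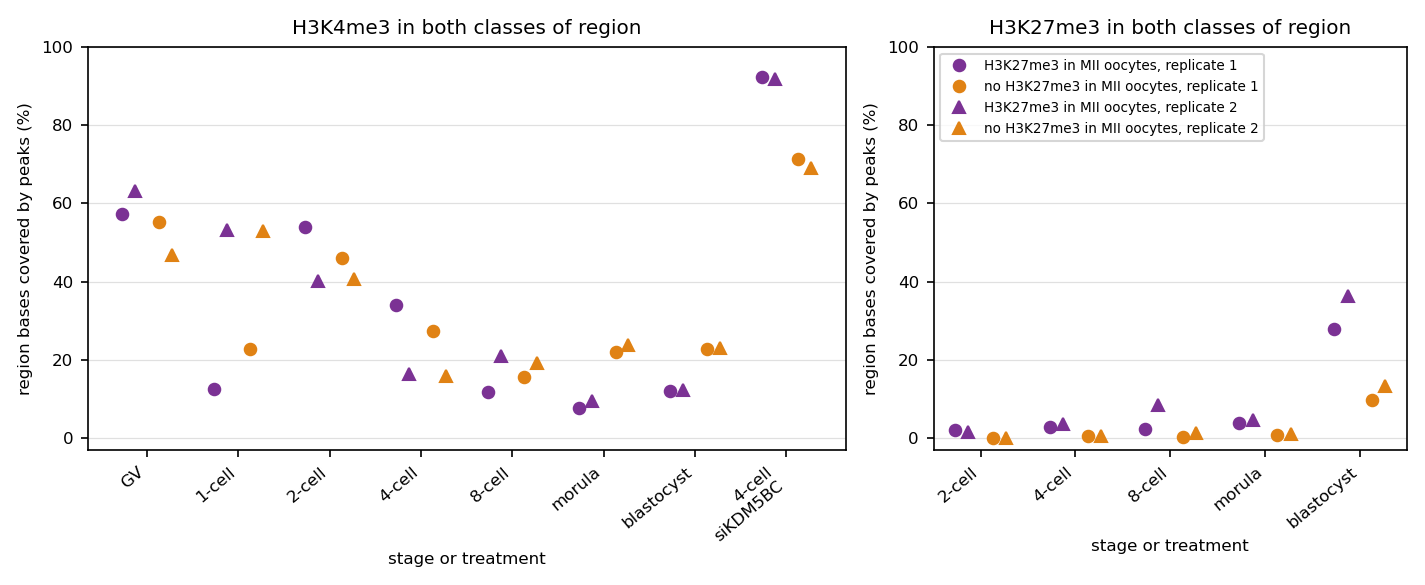
Share of region bases covered by H3K4me3 peaks (left) and H3K27me3 peaks (right) in the 4291 regions with H3K27me3 in both MII libraries (purple) and the 6092 with none (orange); circles are replicate 1 and triangles replicate 2. In morulae the co-marked regions are at 7.62% and 9.44% H3K4me3 and the others at 22.0% and 23.7%, while at the 2-cell stage the classes overlap.

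The co-marked regions were wider (median 958 bp against 764 bp) and lay nearer to chromosome ends, so the classes were also compared within strata. Blastocyst H3K4me3 met the 50% rule in both libraries at 6.02% of the 2775 co-marked and 13.8% of the 1131 unmarked regions within 5 Mb of a chromosome end. Farther than 20 Mb from an end the values were 13.9% of 875 and 22.8% of 3057 regions. For blastocyst H3K27me3 they were 23.0% and 9.99% near the ends and 11.9% and 4.71% far from them. Among regions under 1000 bp, blastocyst H3K4me3 was at 8.65% and 17.96%, and among wider ones at 7.91% and 23.6%. The direction was thus the same in every stratum compared.

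In 4-cell embryos given siRNA against KDM5B and KDM5C, enzymes that remove methyl groups from H3K4, peaks covered most of the MII distal regions. The siKDM5BC libraries covered 81.6% and 80.2% of the region bases and the 4-cell libraries 29.1% and 15.2%, a difference of 58.8 percentage points that is 5.89 times the pooled SD between replicates of 8 H3K4me3 groups (9.99). The exact two-sided permutation test of 2 against 2 libraries gave p = 0.333, the smallest it allows. The log2 ratio to other distal sequence went the other way, 4.01 and 4.13 in siKDM5BC against 4.69 and 4.86 in the 4-cell libraries, a difference of −0.70 that is −3.46 times its pooled SD (0.204, exact permutation p = 0.333). Other distal sequence was covered by 5.06% and 4.58% in siKDM5BC and by 1.13% and 0.522% in the 4-cell libraries. The regions took 6.70% and 7.18% of all sequence the siKDM5BC lists cover and 7.49% and 6.97% of what the 4-cell lists cover, values that overlap. The regions were thus far more covered in siKDM5BC embryos, within lists that were longer everywhere, and they did not make up a larger part of those lists. The part of list length in the result was not tested beyond these values.

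Both siKDM5BC libraries covered at least 50% of 9699 regions (70.4%, tiles 2.54%), and neither touched 1214 (8.82%, tiles 90.5%). Neither 4-cell library touched 6850 regions (49.8%, tiles 96.8%). Of the regions, 3635 (26.4%, tiles 1.51%) had no covered base in either 4-cell library and at least 50% in both siKDM5BC libraries, and 5 (0.0363%, tiles 0.00620%) showed the opposite. The 3635 became 7146 without replicate 1. The 2-cell pair covered 969 regions (7.04%, tiles 0.527%) that neither 4-cell library touched, a count that was 3004 and 2662 without replicate 1 or 2. Of these 969, 791 (81.6%) were covered by both siKDM5BC libraries, against 41.6% of the tiles with the same 2-cell and 4-cell pattern (0.219% of all tiles). Regions with H3K27me3 in the MII oocyte met the siKDM5BC rule in 87.4% of cases and regions without it in 58.3%. Within 5 Mb of a chromosome end these shares were 92.6% and 78.9%, and farther than 20 Mb 76.3% and 49.6%. Among regions of 5 kb or more the share was 97.0% of 33, and among those under 1000 bp 63.9% of 8732.

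The regions were set beside regions defined by the same rule in each other H3K4me3 group. They shared 4.64 Mb with the 14087 such regions of GV oocytes, which is 32.5% of the MII bases and 26.7% of the GV bases. With siKDM5BC embryos (29670 regions, 60.28 Mb) they shared 64.3% of the MII bases and 15.2% of the siKDM5BC bases. With 2-cell embryos the shares were 23.3% and 15.6%, with 4-cell embryos 9.16% and 29.9%, and with blastocysts 12.1% and 4.25%. H3K27me3 of the MII oocyte covered 43.2% of the MII regions on average over its 2 libraries, 36.5% of the GV regions, 33.2% of the siKDM5BC, 30.5% of the 4-cell, 24.4% of the 2-cell and 5.97% of the blastocyst regions defined in this way. The siKDM5BC libraries covered 80.9% of the MII regions on average, 82.1% of the GV, 76.1% of the 2-cell and 93.7% of the 4-cell regions, so a high siKDM5BC share was not particular to the MII regions. These sets overlap and draw on the same libraries, so the values stand side by side without a test.

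The regions crowded towards chromosome ends. Within 2 Mb of an end, taken as the outermost position that any peak or gene reaches, lay 2689 regions (19.5%) and 2.59% of distal tiles. Between 2 and 5 Mb lay 2611 regions (18.96%, tiles 4.54%), and beyond 20 Mb 5123 (37.2%, tiles 69.1%). Marks changed along this axis. Both MII libraries had H3K27me3 over at least 50% of 60.1% of the regions within 2 Mb of an end and of 17.1% beyond 20 Mb. The corresponding siKDM5BC shares were 91.3% and 56.0%, and for blastocyst H3K4me3 8.81% and 18.9%. GV coverage did not follow the axis in the same way, at 55.3% and 60.1% of region bases within 5 Mb and 55.3% and 48.1% beyond 20 Mb. Other distal sequence near the ends was also more covered, by 7.44% and 6.63% in GV, 20.2% and 19.3% in siKDM5BC and 13.2% and 11.4% for MII H3K27me3, against 1.69% and 0.894%, 2.63% and 2.25%, and 1.35% and 1.14% beyond 20 Mb. The log2 ratio of regions to other distal sequence was therefore lower near the ends, 2.89 and 3.18 in GV against 5.03 and 5.75 beyond 20 Mb, and 2.19 and 2.25 in siKDM5BC against 4.74 and 4.90. Base composition and mappability near the ends were not tested.

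**Figure D4:**
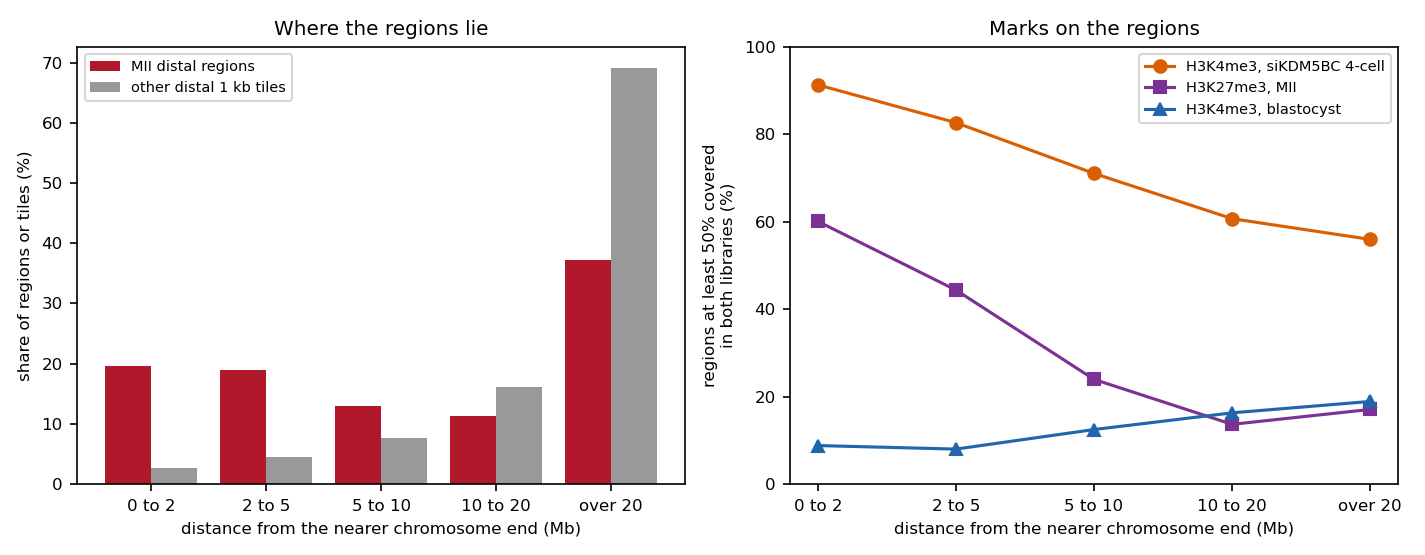
Left, share (%) of the 13768 MII distal regions (red) and of other distal 1 kb tiles (grey) by distance from the nearer chromosome end in Mb. Right, share (%) of the regions covered over at least 50% in both libraries by siKDM5BC 4-cell H3K4me3, MII H3K27me3 and blastocyst H3K4me3. Of the regions, 19.5% lie within 2 Mb of an end against 2.59% of tiles, and MII H3K27me3 goes from 60.1% to 17.1% along the axis.

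Chromosomes differed too. Chromosome 12 was densest, with 855 regions or 18.4 per Mb of distal sequence, followed by chromosomes 6, 18 and 17 at 11.7, 11.7 and 11.6. Chromosome 13 was sparsest at 2.46 and chromosome 1, the longest, had 3.81. On chromosome 16 MII H3K27me3 met the rule at 50% of regions and on chromosome 12 at 20.9%, whereas siKDM5BC met it at 71.6% and 80%.

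With respect to genes the regions were nearer to coding ends than distal sequence at large, although the rule kept them out of the nearest 5 kb. The median distance to a coding gene end was 31886 bp, against 64725 bp for tiles. Of the regions, 6156 (44.7%) lay inside a coding gene, against 46.2% of tiles. Whether they were exonic or intronic was not determined, because the gene table used here gives gene ends only. An end of a non-coding gene lay within 1 kb of 616 regions (4.47%, tiles 1.605%). Those 616 were kept more often in blastocysts, at 32.6% against 12.9% of the other regions, and in morulae at 32.5% against 11.8%, and carried H3K27me3 in MII oocytes less often, at 15.1% against 31.9%. At least 1 region lay inside 2046 of 18722 coding genes (10.9%).

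Among coding genes, PTPRN2 (a receptor-type phosphatase of secretory granules, chr18:721125-1389609) held the most region bases in its body, 97930 bp in 85 regions. PRDM16 (a zinc-finger methyltransferase-family regulator, chr6:64704181-65012580) held 78302 bp in 58 regions, and GSE1 (chr6:3244167-3657636) 70580 bp. They were followed by CAMTA1 (60990 bp), the neural transcription factor MYT1L (51917 bp), the class IIa histone deacetylase HDAC4 (51359 bp), the cadherin CDH4 (47690 bp), the zinc-finger factor CASZ1 (43539 bp), the neuregulin NRG2 (41294 bp) and the inositol phosphatase INPP5A (35932 bp). All 10 are long genes, from 153 to 866 kb. In each of them siKDM5BC covered at least 85.2% of the region bases in both libraries, and morula H3K4me3 at most 9.80%. The PRDM16 regions were covered by 64.7% and 62.4% in GV, 9.48% and 58.5% at the 1-cell stage, 55.3% and 40% at the 2-cell stage, 33.7% and 15.2% at the 4-cell stage, 7.96% and 16.7% at the 8-cell stage, 3.83% and 4.90% in morulae and 5.26% and 7.53% in blastocysts. Its siKDM5BC values were 99.2% and 97.2%, and its MII H3K27me3 values 96.3% and 91.3%, where GSE1 had 53.9% and 40.7% and CAMTA1 63.7% and 49.5%. GV and siKDM5BC libraries were high and morula and blastocyst libraries low. Blastocyst H3K27me3 separated the genes further: it covered 58.7% and 71.3% of the MYT1L regions and 52.0% and 57.2% of those in NRG2, but 6.804% and 15.4% of those in CAMTA1.

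Within 50 kb of its ends CFAP46 (a cilia and flagella protein, chr14:140916089-141002805) had the most region bases, 49796 bp. RXRA, the retinoid X receptor alpha (chr1:273698842-273797622), came next with 43085 bp in 24 regions, then CROCC2 (42978 bp), CASZ1 (38815 bp) and PRDM16 (37706 bp). The RXRA regions kept more blastocyst H3K4me3 than the other 4, at 37.8% and 30.8% against at most 10.04%, and had almost no blastocyst H3K27me3, at 0.139% and 4.76%.

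Of the 5 densest 1 Mb windows, 3 hold genes named above. Regions took 154592 bp of the window chr6:64000001-65000000, which holds PRDM16, 142447 bp of chr15:138000001-139000000 with HDAC4, 134815 bp of chr8:41000001-42000000 with KIT, 132002 bp of chr14:140000001-141000000 with CFAP46, and 115335 bp of chr7:1-1000000 with IRF4, where the median over the 1605 windows with a region was 3122 bp. The KIT window differed from the other 4. It holds 3 coding genes, PDGFRA, KIT and KDR, all receptor tyrosine kinases, and KIT is the receptor through which granulosa cells support oocyte growth. Its 70 regions were covered by 30.4% and 81.6% at the 1-cell stage, where the others had at most 8.70% in replicate 1 and 60.3% in replicate 2, and siKDM5BC covered 70.6% and 67.7% where the other windows had 95.9% or more. MII H3K27me3 covered 43.8% and 38.6% of them, against at least 78.6% in the other windows.

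KIT itself (chr8:41402334-41492306) had 34343 bp in 13 regions within 50 kb of an end, the most of any gene of the oocyte and maternal-effect list. Those regions were covered by H3K4me3 at 89.2% and 54.9% in GV, 28.2% and 91.0% at the 1-cell stage, 61.3% and 69.8% at the 2-cell stage and 29.5% and 5.83% at the 4-cell stage. At the 8-cell stage the values were 12.2% and 14.5%, in morulae 23.7% and 29.1% and in blastocysts 13.4% and 11.2%. The siKDM5BC libraries had 82.8% and 76.4%, and MII H3K27me3 only 4.35% and 4.40%. The widest of the 13, chr8:41506839-41516411, lay 14533 bp from KIT and outside coding genes. It was covered in full in 1-cell and 2-cell replicate 2, by 37.9% and 0% in the 4-cell libraries, by 0% in both blastocyst libraries and by 94.95% and 93.1% in siKDM5BC.

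Genes were then counted by list. Of all 18722 coding genes, 38.0% had a region within 50 kb of an end and 5.20% had at least 5 kb of regions there, with a median of 0 bp. Of 64 developmental transcription factors, which pattern the later embryo, 52 had a region (81.2%, median 1748 bp) and 11 had 5 kb or more. Of 13 trophectoderm genes 10 had a region (median 2147 bp), of 9 Polycomb and H3K27 demethylase genes 7, and of 6 H3K4 demethylase genes 4. Of 20 imprinted genes 11 had a region and 6 had 5 kb or more. Of 18 pluripotency genes 10 had one, of 12 H3K4 methyltransferase complex genes 6, and of 8 DNA methylation genes 4. Near the background were 49 ribosomal protein genes, 20 with a region (40.8%), 36 HOX genes, 13 with a region (36.1%) and none with 5 kb, and 12 cumulus and granulosa genes, 4 with a region (33.3%). Of 23 oocyte and maternal-effect genes 6 had one (26.1%). Gene spacing and distance from chromosome ends differ between lists, and their part was not tested.

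Named members of the lists showed several courses. Near the imprinted growth factor gene IGF2 (15704 bp of regions) GV covered 37.6% and 45.7%, the 2-cell stage 46.3% and 16%, siKDM5BC 100% and 99.6% and morulae 1.24% and 0.599%, with MII H3K27me3 at 93.2% and 81.9%. Its neighbour ASCL2, a trophoblast transcription factor with 12249 bp, shares part of that window and its regions, and had 95.1% and 78.5% MII H3K27me3 and 2.80% and 2.29% H3K4me3 in morulae. Blastocyst H3K27me3 covered 20.9% and 33.4% of the IGF2 regions and 1.93% and 11.98% of those of ASCL2. IGF2R, the receptor that clears IGF2, was different: its 6171 bp were covered by 13.6% and 1.10% at the 4-cell stage and by 56.1% and 63.5% in morulae and 61.6% and 60.6% in blastocysts. Of the other imprinted genes, DLK1 had 12565 bp, GRB10 13802 bp and KCNQ1 5204 bp, and blastocyst H3K4me3 covered at most 17.4% of each. At DNMT3L, the cofactor of de novo DNA methylation in germ cells (12780 bp), GV covered 58.8% and 85.4%, the 4-cell stage 13.4% and 1.83% and siKDM5BC 100% and 98.2%, with MII H3K27me3 at 78.6% and 78.7%. At DNMT3A, a de novo DNA methyltransferase (8109 bp), GV was at 51.3% and 53.6% and siKDM5BC at 92.0% and 97.3%, but MII H3K27me3 at 4.38% and 8.18%. DNMT3L and DNMT3A regions thus differed in H3K27me3 and not in the direction of their H3K4me3 course.

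Among developmental regulators, SOX1, a neural factor (9115 bp), had MII H3K27me3 over 82.0% and 77.7% of its regions and blastocyst H3K27me3 over 83.3% and 93.2%. FOXC1 (11002 bp) had 86.8% and 86.0% in MII oocytes and 64.0% and 73.1% in blastocysts. GATA5 (14042 bp) and IRX4 (13560 bp) had MII values of 77.6% and 68.7%, and 80.5% and 82.2%, and blastocyst values of 12.1% and 31.3%, and 41.7% and 44.5%. At PAX2, a kidney and eye regulator (12750 bp), MII H3K27me3 was at 46.8% and 52.5%, and the mark was also present in morulae, at 34.0% and 38.2%. Of the other members with at least 5 kb, SOX10, SOX11, PAX7, FOXF1, IRX1 and IRX2, siKDM5BC covered from 37.9% (SOX11 replicate 2) to 100%. GATA3, a trophectoderm regulator (7988 bp), kept H3K4me3 in morulae at 40.6% and 37.2% and in blastocysts at 51.5% and 49.4%, with siKDM5BC at 95.2% and 88.3%. PTGES, also of the trophectoderm list (6110 bp), was lower, at 24.1% and 17.3% in morulae and 29.7% and 27.9% in blastocysts. UTF1, expressed in pluripotent cells (13063 bp), had 100% and 98.6% MII H3K27me3, and NR5A2, an activator of early embryonic genes (6660 bp), 39.3% and 43.0%.

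Further named list genes have housekeeping, chromatin or granulosa cell roles. The ribosomal protein gene RPL3 (5445 bp) had 74.7% and 72.7% at the 2-cell and 3.66% and 4.13% at the 4-cell stage, with siKDM5BC at 93.5% and 83.8%. RPS14, also a ribosomal protein gene (5376 bp), had no MII H3K27me3. WDR5, a core subunit of H3K4 methyltransferases (12203 bp), had 78.4% and 54.9% at the 2-cell stage, 32.4% and 11.4% at the 4-cell stage and 99.4% and 100% in siKDM5BC, with MII H3K27me3 at 62.0% and 52%. KDM6B, an H3K27 demethylase (5478 bp), had 100% and 98.5% in GV and blastocyst H3K27me3 over 57.5% and 38.2%. At INHA, an inhibin subunit of granulosa cells (5825 bp), H3K4me3 was 0% in all 8-cell, morula and blastocyst libraries and 100% and 87.3% in siKDM5BC.

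**Figure D5:**
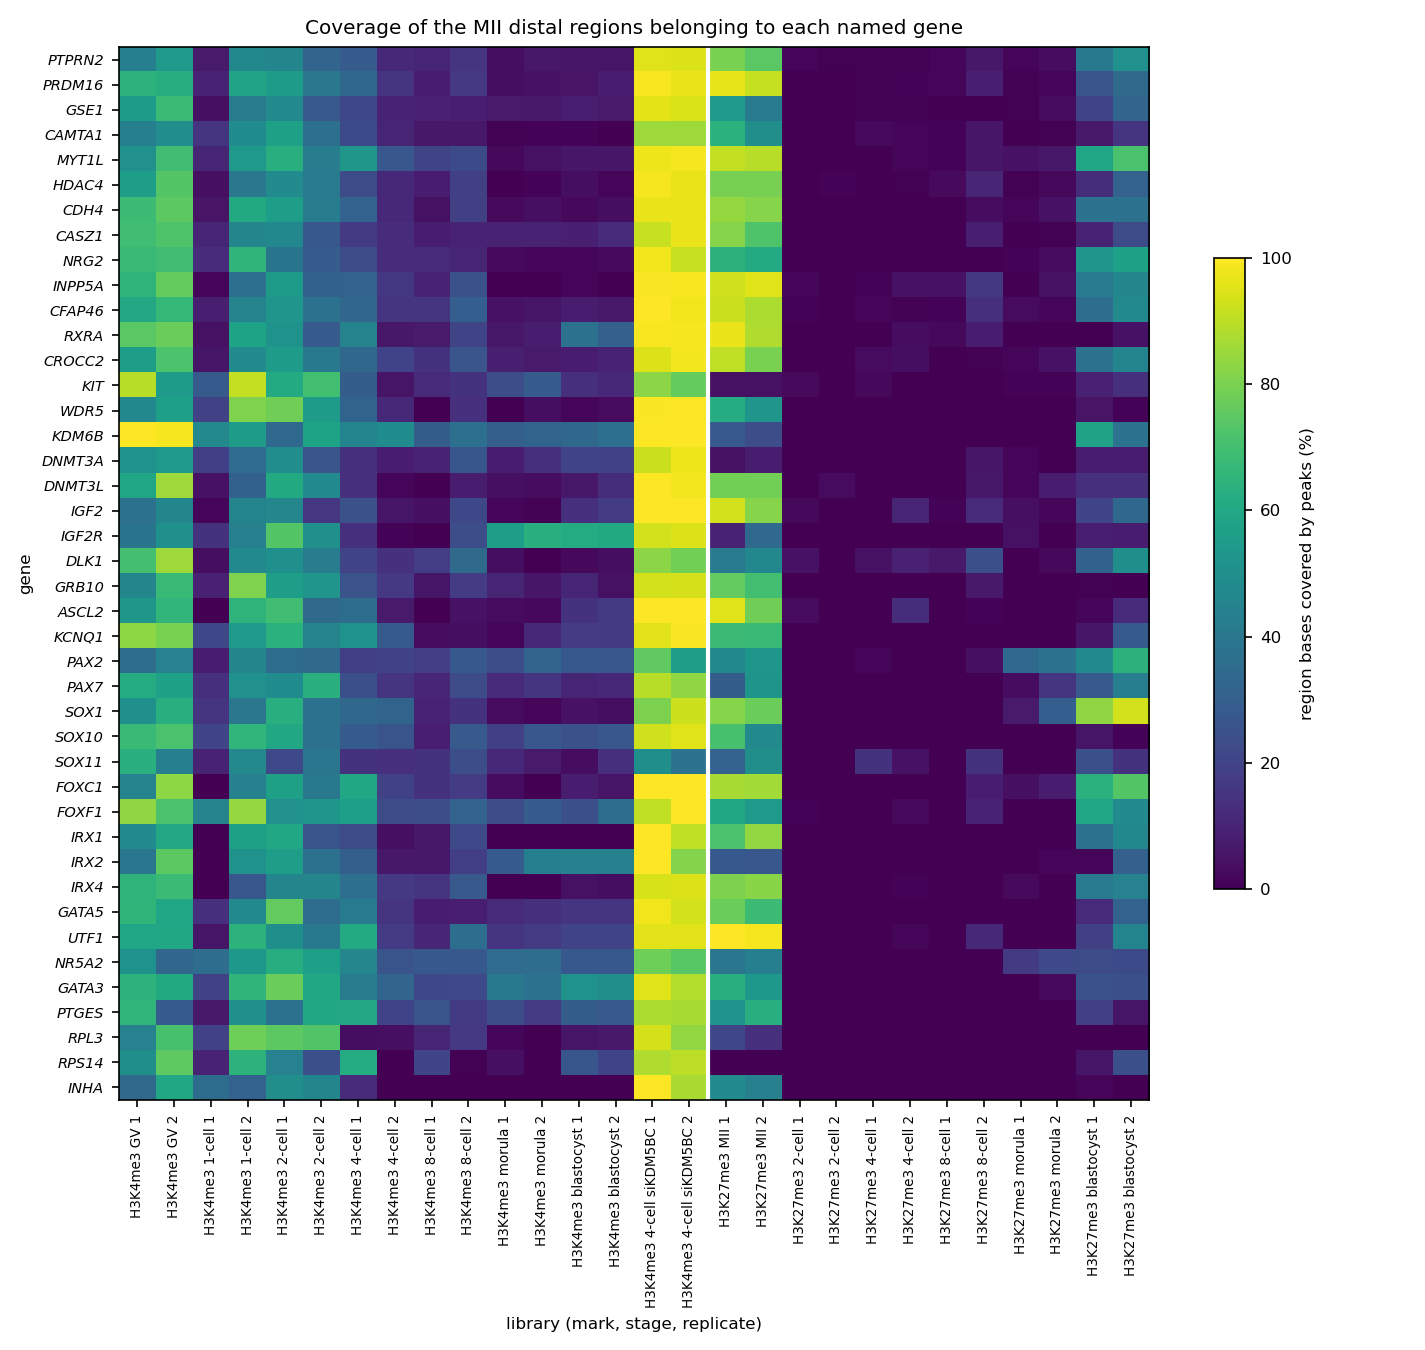
Share of region bases covered by peaks (%, colour) for the MII distal regions of each named gene (rows) in each library (columns), with MII H3K4me3 left out because it chose the regions; the white line divides H3K4me3 (left) from H3K27me3 (right). For the 10 genes with the most region bases in their bodies the regions inside the gene are used, and for the others those within 50 kb of an end; the siKDM5BC columns stand out in nearly every row, KIT and DNMT3A are low for MII H3K27me3, and IGF2R is high in morulae and blastocysts.

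Single regions show the range. The widest of all, 12812 bp inside SUSD4 at chr10:19482706-19495517, was covered by at least 97.2% in every GV, 1-cell, 2-cell, 4-cell and 8-cell H3K4me3 library, and by H3K27me3 in full in both MII libraries and by 99.9% or more in both 2-cell libraries. The 12316 bp region chr5:39774598-39786913, 29943 bp from OSBPL8, was at 74.2% and 82.0% in GV, 0% and 10.9% at the 1-cell stage and 100% and 78.1% at the 4-cell stage. The 9031 bp region chr13:206526928-206535958, 9395 bp from HSF2BP, was covered in full in both siKDM5BC libraries and by at most 5.27% in the morula and blastocyst libraries. The fifth widest, 8124 bp at chr14:7356725-7364848 inside LOC100737977, kept at least 79.1% in every H3K4me3 library.

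At least 90% at all 7 other stages was found at 52 regions (0.378%, tiles 0.00284%), and the 4 widest carried H3K27me3 as well. Of the 275 regions kept by the 50% rule, 68 (24.7%) had MII H3K27me3 over at least 50% in both libraries. That is near the 25.95% of the 262 tiles kept at all 7 stages, and 31.2% of all regions had it. The 4 widest of the 52 were chr2:27419077-27424058, 52236 bp from KIAA1549L, chr5:90244587-90249219 inside EEA1, chr6:58549798-58553802, 7876 bp from LOC110261043, and chr5:40195499-40198505, 211576 bp from LOC110260582. In each of them both 2-cell H3K27me3 libraries, whose lists are the shortest, covered at least 99.6%. The last had MII H3K4me3 folds of 44.3 and 28.5, and all 30 libraries covered it in full. At least 50% in all 30 libraries was found at 18 regions (45060 bp, 0.131% of regions, tiles 0.00150%). Of the 275 regions kept at all 7 stages, 33 (12%) were covered over at least 50% in 1 or more of the 8 H3K27me3 libraries of the 2-cell to morula stages. Over all regions this was 6.17% and over all tiles 2.80%. The share among tiles kept at all 7 stages, which would be the like background, was not counted. What both antibodies recover at such places (both marks, repeats or copies missing from the assembly) was not tested.

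Regions absent from both 4-cell libraries and covered to at least 90% by both siKDM5BC libraries numbered 2654 (19.3%, tiles 0.817%). The widest were 4760 bp inside NRG2 (chr2:141769993-141774752), 4441 bp inside TIE1, an endothelial receptor kinase (chr6:167932057-167936497), 4086 bp located 7418 bp from MPRIP (chr12:61193324-61197409), and 3776 bp inside the phosphodiesterase gene PDE2A (chr9:7216486-7220261). The one near MPRIP was at 100% and 67.7% at the 2-cell stage, 0% at the 4-cell, 8-cell and morula stages and 29.9% and 48.7% in blastocysts. The PDE2A region had no H3K27me3 in MII oocytes, and the other 3 had between 47.8% and 67.5%.

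H3K27me3 covered at least 90% of 3024 regions (22.0%, tiles 0.565%) in both MII libraries, and after the SUSD4 region the widest were 7513 bp located 6173 bp from the fibroblast growth factor receptor gene FGFR3 (chr8:865466-872978), 6124 bp inside MYT1L (chr3:132245014-132251137) and 6020 bp inside DOK7 (chr8:2107279-2113298). All 3 were covered in full in both siKDM5BC libraries and had no H3K27me3 at the 2-cell and 4-cell stages. The MYT1L region was also the widest of 570 regions (4.14%, tiles 0.385%) with no H3K4me3 and at least 90% H3K27me3 in both blastocyst libraries, at 94.6% and 95.2%. Next to it in that set were regions inside GMDS (chr7:893633-897432), inside LOC106505208 (chr10:65341577-65344749) and 110926 bp from SEPT9 (chr12:4140933-4143845). The LOC106505208 region had 13.7% and 0% H3K27me3 in MII oocytes and 100% in both blastocyst libraries.

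At least 90% at the 1-cell and 2-cell stages with none in morulae and blastocysts was found at 87 regions (0.632%, tiles 0.0141%). The widest lay inside SFXN5 (chr3:69779139-69781349), 40469 bp from SMUG1 (chr5:19332807-19334775), 25342 bp from KRBA1 (chr18:55711178-55712797) and inside CAMK2B (chr18:50874621-50876170). The SFXN5 region was at 13.3% and 5.93% in GV and 100% and 99.8% at the 1-cell stage. The KRBA1 region carried H3K27me3 in blastocysts at 100% and 99.7%. Of the 306 regions with H3K4me3 in the MII libraries alone, the widest were 2296 bp at chr4:120775900-120778195, 63439 bp from DPYD, 1583 bp at chr15:33014093-33015675 inside DLGAP2, and 1390 bp at chr6:99993295-99994684 inside PTPRM. Their MII folds lay between 3.14 and 3.37, beside medians of 3.37 and 3.38 over all regions. The PTPRM region was covered in full by H3K27me3 in MII replicate 2 and by 0% in replicate 1.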

How the data were processed

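H3K4me3 and H3K27me3 were measured by ULI-NChIP-seq in 30 libraries of 15 groups. Each library has 1 deposited broadPeak list, with positions in base pairs, the authors' integer score, fold enrichment (a linear ratio) and −log10 p and −log10 q values, called per library. Bowtie2 2.4.1, MACS2 and the build susScr11 are named in the submitters' processing notes. For MACS2 the version, input control and threshold are not given in the sources used here, and neither are read filters. The score and −log10 p were not used. Depth is unknown, since the lists hold no read totals.

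Covered share is the percentage of region bases inside a library's peaks. Gene ends came from RefSeq on Sscrofa11.1 (the same assembly, no strand). Distal tiles of 1 kb met no region. Stage effects used permutation tests of F (100000 permutations, seed 1, Benjamini-Hochberg over 4 tests, threshold 0.05), and contrasts exact permutation tests. The functions were tested on simulated data. Python 3.11.15, numpy 2.4.6 and pandas 2.3.3 were used. Alternatives changed length, distance, gene set, q minimum, measure, defining library and the replicate block, and left out each library.

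Regions named are the widest of patterns fixed by rule, genes those with the most region bases and, from 12 lists (270 of 284 symbols matched), those with at least 5 kb within 50 kb; 1 gene of this rule is not reported here. The regions, patterns and lists were chosen with earlier results of these data known. Chromosomes X and Y and unplaced sequences were left out, and no genome sequence was used here.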

Additional observations from a re-analysis of the deposited data

Results flagged for a closer look

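Chromosome X lies outside the comparisons above. The same rule applied there gave 537 regions. Their H3K4me3 covered share was 61.2% and 50.1% in the GV libraries, 2.96% and 39.3% at the 1-cell, 29.6% and 21.8% at the 2-cell, 17.1% and 8.56% at the 4-cell, 10.1% and 14.2% at the 8-cell, 18.2% and 19.3% at the morula and 19.1% and 19.1% at the blastocyst stage, and 68.5% and 71.7% in siKDM5BC embryos. At the 2-cell stage both libraries lay under both values of the autosomal regions (49.5% and 40.1%), and in blastocysts both lay above them (16.2% and 16.6%). Both siKDM5BC libraries also lay under the autosomal values (81.6% and 80.2%), and both morula libraries lay above them (13.7% and 15.5%). In the remaining H3K4me3 groups apart from MII the X and autosomal values overlapped. H3K27me3 covered 40.6% and 38.1% of the X regions in MII oocytes and 28.8% and 38.9% in blastocysts, where the autosomal regions had 18.1% and 24.1%. The difference between X and the autosomes was not tested, and the sex of the embryos is not in the labels.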

How the results depend on the processing

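The number of regions followed the definition: 5036 at a minimum length of 1000 bp, 1831 and 168 with −log10 q of at least 1.6 and 2 in every list, 30445 and 44423 from MII replicate 1 or 2 alone. The H3K4me3 covered share (GV minus morula 39.9 percentage points) was the least stable result. By permutation test it was 35.04 at −log10 q 1.6 (adjusted p = 0.132), 22.9 at 2 (0.183), 27.1 and 25.1 with regions of MII replicate 1 or 2 alone (0.0718, 0.0797), and 37.4 as the share of regions at least 50% covered (0.0516). With the order turned, it was −6.67 at −log10 q 3 (adjusted permutation p = 0.00173). Leaving out 1 library gave 39.0 to 40.8. The H3K27me3 log2 ratio (MII minus 4-cell) was −1.80 at −log10 q 2 and otherwise positive, although MII was not the highest stage at any q minimum; the cause was not tested. The siKDM5BC minus 4-cell log2 ratio stayed negative (−1.03 and −2.17 at −log10 q 1.6 and 2, −0.48 at 3, −0.39 and −0.36 from MII replicate 1 or 2 alone, −0.91 by the 50% rule, −0.79 to −0.62 without 1 library), and the covered share difference stayed positive (33.2 and 31.5 at −log10 q 2 and 3, 48.7 and 48.2 from MII replicate 1 or 2 alone, 51.8 to 65.8 without 1 library). Without 1 library the H3K4me3 log2 range was 2.86 to 3.03, the H3K27me3 share 40.6 to 44.4, the H3K27me3 log2 range 3.20 to 3.61 and the early against late contrast 0.92 to 1.11, all on the side of the threshold given above.

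Same-numbered libraries did not deviate together region by region (r over regions from −0.06 to 0.042 for 28 pairs of H3K4me3 groups and from −0.014 to 0.084 for 15 of H3K27me3). This measure does not see an offset shared by all regions of a library. Whether the replicate number marks a batch was thus not tested. With a replicate block the H3K4me3 covered share gave 39.9 (permutation test, adjusted p = 0.0735), and the other 3 stage tests kept their calls. The paired siKDM5BC differences were 58.8 and −0.70 (exact permutation p = 0.5, the smallest that 2 pairs allow). Regions kept at all 7 stages numbered 275, 840 from 1 bp, 52 from 90%, and 546 and 455 without replicate 1 or 2. Those at the 2-cell and not at the 4-cell stage numbered 969 and, in the same order of settings, 2314, 382, 3004 and 2662, and those absent at the 4-cell stage and present in siKDM5BC 3635, and 7146 without replicate 1. The comparisons with points 10 to 20 kb away and without the 850 regions were chosen after seeing the data. Depth is unknown, so a region without a peak is one where none was listed.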
